A study of Mus musculus with 24 samples.

Results

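The contractile and actin-binding genes of smooth muscle were followed through 16 RNA-Seq libraries from which ribosomal RNA had been removed. The set held 10 of the 22380 protein-coding genes of the GENCODE M1 annotation of mm9, namely Tagln, Cnn1, Cnn2, Acta2, Actg2, Myl9, Tpm1, Tpm2, Cald1 and Myh9. They were named as targets of serum response factor (SRF) and put together after the differences between CCE cells and fetal head in these same libraries were known. For that reason every CCE against FH value of these 10 genes is given as a description, with no test.

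CCE is a feeder-independent mouse embryonic stem cell line of strain 129/SvEv, here differentiated by withdrawal of LIF and 0.266 µM retinoic acid for 5 days. Fetal head (FH) was dissected from FVB/N embryos at 14.5 dpc and holds many tissues. The number of embryos behind each FH preparation was not given in the sources used here, strain and tissue cannot be told apart, and the CCE preparations are technical replicates of 1 cell line, so p-values measure the spread between preparations. RiboMinus depletion gave 8 CCE libraries from 4 cDNA preparations and 6 FH libraries from 3 preparations, each preparation fragmented by cDNA-shearing or RNA-hydrolysis and sequenced at both Vienna-IMP and Nijmegen. Both fragmentation methods were applied to the same RiboMinus RNA, so the 4 CCE preparations come from 2 depleted RNAs and the 3 FH preparations from 2, and SDs and p-values that count preparations treat them as separate. The second FH RNA passed through 2 rounds of RiboMinus and all others through 1. By its tag composition, the study considers the hydrolysed Vienna-IMP library of the first FH RNA most likely a technical outlier. That library was kept here. Ribo-Zero depletion with RNA-hydrolysis gave 1 library per tissue, from other RNA, sequenced at Vienna-CeMM with longer tags. The sequencing machine also differed, hydrolysis was longer and more mismatches were allowed in mapping. Kit, RNA, tag length, location and these settings cannot be told apart. The pooled RiboMinus libraries mix sheared with hydrolysed ones, while both Ribo-Zero libraries are hydrolysed.

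In smooth muscle, actin and myosin filaments slide past each other when calcium activates the kinase that phosphorylates the myosin light chain. SRF binds the CArG box, a short AT-rich element flanked by C and G pairs, and switches contractile genes on with its cofactors myocardin (Myocd) and the actin-sensing proteins Mkl1 and Mkl2. Several of these genes are also active outside smooth muscle, in spreading and adherent cells that build stress fibres, and Cnn2, Tpm1, Cald1 and Myh9 belong to the cytoskeleton of many cell types.

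A RiboMinus library held 920424 to 2473448 unique tags, and Ribo-Zero gave 28708715 such tags for CCE and 48426051 for FH. Levels are given as RPKM, which are tags whose midpoint lay in an exon of the gene, per kilobase of merged exon and per 1000000 unique tags. At the depth of the shallowest RiboMinus library 1 tag in a gene with 1 kb of exon was worth an RPKM of 1.09. Tags at an already occupied position made up 17.7 to 29.4% of a RiboMinus library, 48.6% of the CCE Ribo-Zero library and 37.4% of the FH Ribo-Zero library. By exact match 98.4 to 100% of the 36-base windows of the exons were found once in mm9. The mapping of the study allowed mismatches, and windows shared with similar genes under that rule, such as other actins, were not counted. Among the exceptions, 21 windows of Acta2 also occur in the cytoplasmic actin gene Actg1 and 12 in Actb. Intervals on tag counts cover counting error only.

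In the RiboMinus libraries 9 of the 10 genes were higher in every CCE library than in every FH library, and the exception was Tpm2. The range was wide, from a pooled RPKM of 1398 for Tagln to 11.2 for Cald1 in CCE. Ribo-Zero libraries of the same tissues gave another order, in which Tagln, Tpm1 and Myh9 lay close together in CCE and in which Actg2 and Myl9 were not higher in CCE. In bulk RNA, fewer cells of a type and less RNA per cell cannot be told apart.

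**Figure D1:**
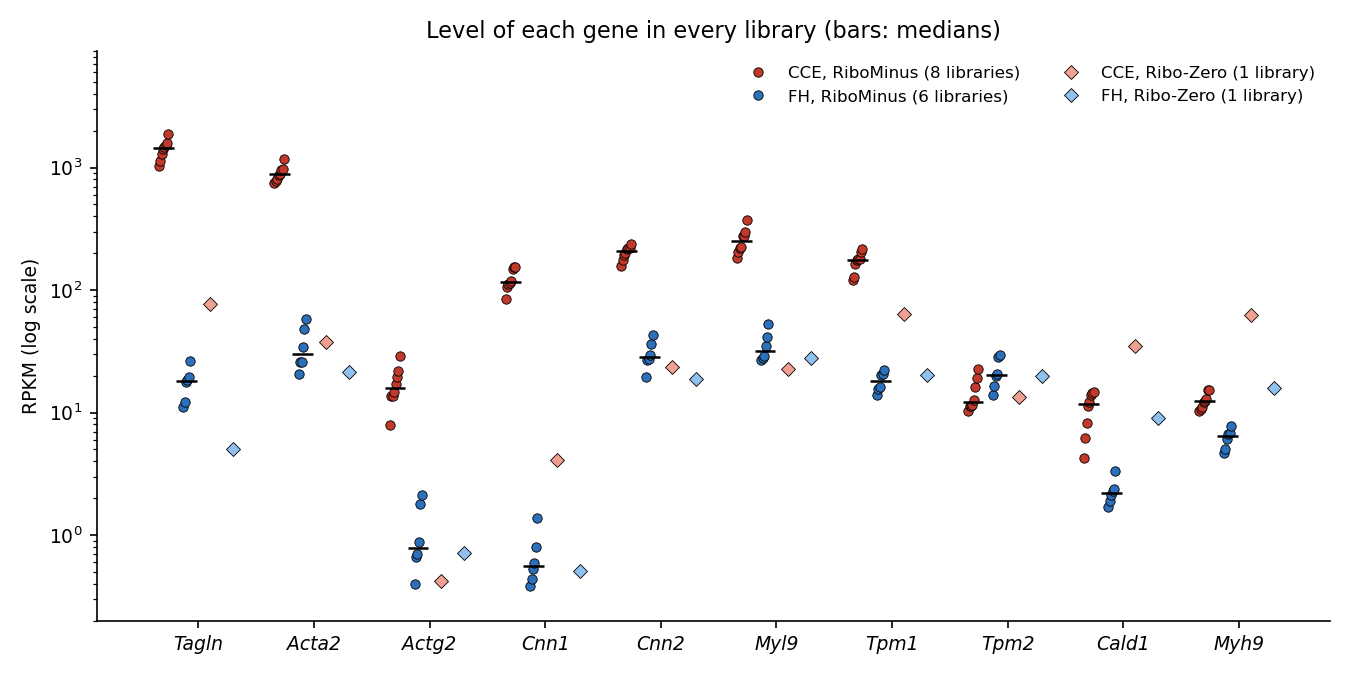
Level of each gene as RPKM on a log axis in every library, with circles for RiboMinus, diamonds for the single Ribo-Zero library of a tissue, red shades for CCE, blue shades for FH and bars for medians. Tpm2 is the gene whose RiboMinus groups overlap, and the CCE Ribo-Zero diamonds of Tagln (76.6) and Acta2 (38.0) lie far below the CCE RiboMinus circles.

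Tagln (transgelin, or SM22, a calponin-related protein that binds and stabilises actin filaments; ENSMUSG00000032085.4, mm9 chr9:45737711-45744141, minus strand) was the strongest of the set in CCE. Its RPKM ran from a lowest of 1038 over a median of 1442 to a highest of 1868 in the 8 CCE RiboMinus libraries, and from 11.1 over 18.2 to 26.2 in the 6 FH libraries. The groups lay far apart, and the 17 tags of the poorest FH library set the precision on that side. Over preparations the mean was 1392 ± 116 (SD, n = 4) in CCE and 17.9 ± 2.85 (SD, n = 3) in FH. In the pooled CCE RiboMinus tags Tagln ranked 3 among all protein-coding genes by RPKM. In Ribo-Zero it stood at 76.6 (95% interval 74.1 to 79.2) in CCE, where its rank was 247, and at 5.03 (4.54 to 5.55) in FH. The pooled CCE over FH ratio was thus 75.6 (67.4 to 85.2) with RiboMinus and 15.2 (13.7 to 17.0) with Ribo-Zero.

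Acta2 (smooth muscle alpha-actin, the thin filament actin of vascular smooth muscle and myofibroblasts; ENSMUSG00000035783.8, chr19:34315580-34329826, minus strand) was next after Tagln in CCE with RiboMinus, but lay below Tagln, Tpm1 and Myh9 in CCE with Ribo-Zero. In the CCE RiboMinus libraries its RPKM was 744 at the lowest, 881 at the median and 1185 at the highest, against 20.7, 30.1 and 57.6 in FH. No library of one tissue came near the other, although the FH libraries differed among themselves by more than those of CCE did in proportion. In Ribo-Zero Acta2 was at 38.0 (36.3 to 39.7) in CCE and 21.5 (20.5 to 22.5) in FH. The ratio of the tissues was 23.4 (21.7 to 25.3) with RiboMinus and 1.77 (1.66 to 1.89) with Ribo-Zero.

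Actg2 (smooth muscle gamma-actin of the gut and bladder wall; ENSMUSG00000059430.8, chr6:83462899-83486259, minus strand) was rare in FH and with Ribo-Zero, and in CCE RiboMinus its pooled RPKM of 17.6 lay above those of Tpm2, Myh9 and Cald1. Its RPKM was 7.87, 15.9 and 29.1 at the lowest, median and highest of the CCE RiboMinus libraries, and 0.401, 0.786 and 2.12 in FH, where 3 of the 6 libraries held a single tag. The CCE Ribo-Zero library held 19 tags (RPKM 0.424, interval 0.255 to 0.662) and the FH library 54 (0.714, interval 0.536 to 0.931). With RiboMinus CCE stood at 14.4 times FH (9.07 to 24.2), whereas with Ribo-Zero the ratio was 0.594, with an interval from 0.332 to 1.02 that includes equality.

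The calponins bind actin and slow the myosin motor. Cnn1 (ENSMUSG00000001349.4, chr9:21903725-21914074, plus strand), the form that marks differentiated smooth muscle, had an RPKM of 85.2, 116 and 153 at the lowest, median and highest of the CCE RiboMinus libraries and 0.386, 0.561 and 1.38 in FH. The FH values rest on 15 tags in all, 1 to 4 per library, so the RiboMinus ratio of 191 has a wide interval of 115 to 341. In Ribo-Zero Cnn1 was at 4.07 (3.61 to 4.58) in CCE and 0.506 (0.384 to 0.654) in FH, a ratio of 8.06 (6.05 to 10.9). Cnn2 (ENSMUSG00000004665.4, chr10:79451329-79458807, plus strand), the broadly expressed calponin of non-muscle cells, was more alike between tissues. Its RiboMinus values were 157, 207 and 237 in CCE and 19.6, 28.3 and 43.0 in FH, a ratio of 6.28 (5.83 to 6.78). Ribo-Zero gave 23.3 in CCE and 18.9 in FH, a ratio of 1.24 (1.16 to 1.32).

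Of the myosin genes, Myl9 (the regulatory light chain whose phosphorylation starts contraction; ENSMUSG00000067818.6, chr2:156601156-156607394, plus strand) had an RPKM of 181, 252 and 374 at the lowest, median and highest of the CCE RiboMinus libraries and 26.7, 31.8 and 53.1 in FH. In Ribo-Zero it was lower in CCE than in FH, at 22.8 (21.2 to 24.5) and 27.8 (26.4 to 29.2). The ratio of 6.91 (6.26 to 7.65) with RiboMinus therefore stood beside one of 0.821 (0.752 to 0.896) with Ribo-Zero. Myh9 (the heavy chain of non-muscle myosin IIA, the motor of stress fibres; ENSMUSG00000022443.9, chr15:77591017-77672605, minus strand) behaved the other way round. Its RiboMinus values were 10.3, 12.3 and 15.3 in CCE and 4.70, 6.39 and 7.73 in FH, a ratio of 2.07 (1.90 to 2.25). In Ribo-Zero it reached 62.3 (61.5 to 63.1) in CCE and 15.7 (15.4 to 16.0) in FH, a ratio of 3.96 (3.87 to 4.06).

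Caldesmon (Cald1; ENSMUSG00000029761.9, chr6:34548500-34725473, plus strand), which holds myosin off the thin filament, had RiboMinus values of 4.29, 11.8 and 14.7 in CCE and 1.70, 2.21 and 3.34 in FH. In Ribo-Zero it was at 35.1 (34.3 to 35.9) in CCE and 9.04 (8.74 to 9.35) in FH. Its ratio of tissues was 4.84 (4.12 to 5.70) with RiboMinus and 3.88 (3.73 to 4.04) with Ribo-Zero.

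Tropomyosins lie along the actin filament and set where myosin and other proteins can bind. Tpm1 (ENSMUSG00000032366.9, chr9:66870397-66897213, minus strand) had an RPKM of 122, 177 and 217 at the lowest, median and highest of the CCE RiboMinus libraries and 13.9, 18.2 and 22.2 in FH. In Ribo-Zero it was at 63.9 (62.8 to 65.1) in CCE and 20.2 (19.7 to 20.7) in FH. The ratio was 9.16 (8.64 to 9.73) with RiboMinus and 3.17 (3.07 to 3.27) with Ribo-Zero. Tpm2 (ENSMUSG00000028464.9, chr4:43527583-43536637, minus strand) was the gene whose groups overlapped, with 10.3, 12.1 and 22.7 in CCE against 13.8, 20.2 and 29.6 in FH. Ribo-Zero gave 13.5 (12.7 to 14.3) in CCE and 19.9 (19.2 to 20.7) in FH. It was also the gene on which the depletion methods differed least, with CCE at 0.666 (0.594 to 0.746) of FH with RiboMinus and 0.677 (0.631 to 0.725) with Ribo-Zero.

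**Figure D2:**
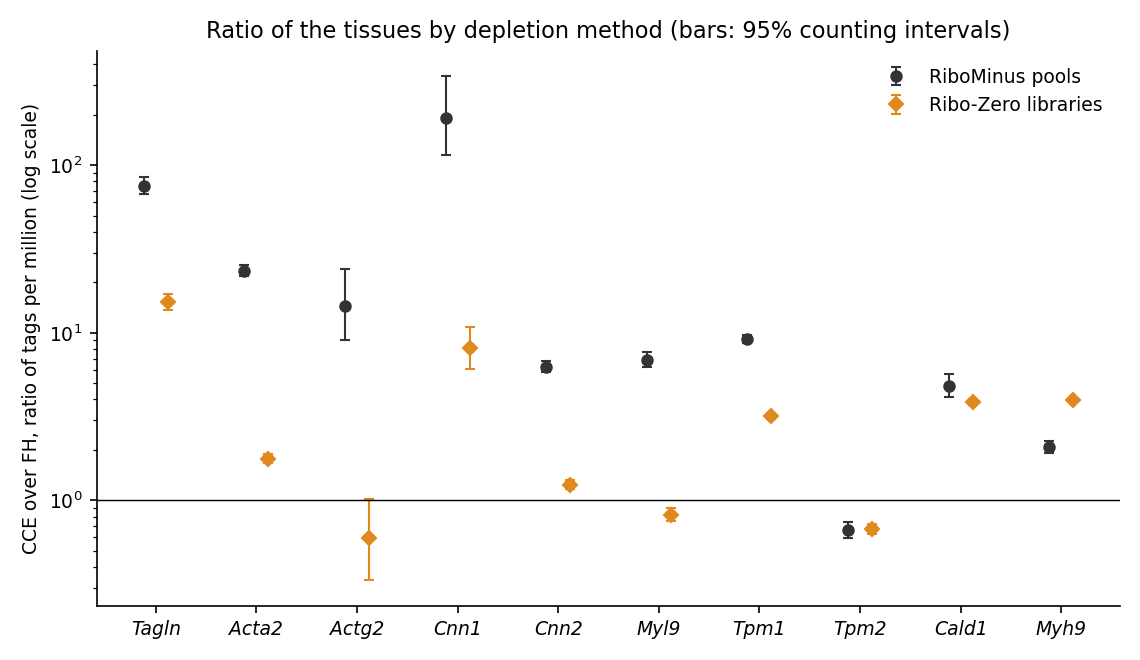
Ratio of CCE over FH in depth-scaled tags on a log axis for each gene, with black circles for the pooled RiboMinus libraries, orange diamonds for the Ribo-Zero libraries, bars for 95% counting intervals and a line at equality. The ratio of Cnn1 is 191 with RiboMinus and 8.06 with Ribo-Zero, Actg2 and Myl9 lie below the line with Ribo-Zero alone, and Tpm2 lies below it with both.

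In the pooled libraries 8 of the 10 genes were over 2-fold higher in CCE with RiboMinus on RPKM plus 1, where 20.1% of all genes compared were, and none was over 2-fold lower, where 15.1% were. With Ribo-Zero the counts were 5 and none, beside 26.4% and 10.6% of all genes. Since the genes were chosen on this contrast, nothing is read from these counts. As a whole the 10 genes took 0.634% of unique tags in CCE and 0.0507% in FH with RiboMinus, and 0.181% and 0.0589% with Ribo-Zero. Their summed RPKM was 3114, 178, 340 and 139 in the same order. Tagln and Acta2 together made up 74.0% of the summed RPKM in CCE with RiboMinus and 33.7% with Ribo-Zero, while Myh9 made up 0.399% and 18.3%.

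The depletion methods differed by more in CCE than in FH for Actg2, Cnn1, Acta2, Tagln, Myl9, Cnn2, Tpm1 and Myh9, but not for Tpm2 and Cald1. In CCE the RPKM with RiboMinus was 41.6 times that with Ribo-Zero for Actg2 (26.2 to 69.9), 29.9 times for Cnn1 (26.4 to 33.9), 23.8 times for Acta2 (22.7 to 25.0) and 18.2 times for Tagln (17.6 to 18.9). Myl9 and Cnn2 followed with 11.5 times (10.6 to 12.4) and 8.54 times (8.09 to 9.02). Tpm1 was at 2.69 times (2.62 to 2.75) and Tpm2 at 1.12 times (1.02 to 1.24). The 2 longest genes went the opposite way, with Ribo-Zero at 3.15 times RiboMinus for Cald1 (2.96 to 3.35) and 5.01 times for Myh9 (4.79 to 5.24). In FH the same ratios of RiboMinus over Ribo-Zero were 3.68 for Tagln, 1.80 for Acta2, 1.72 for Actg2, 1.68 for Cnn2, 1.36 for Myl9 and 1.26 for Cnn1. Tpm2 and Tpm1 were at 1.14 and 0.928 in FH, and Myh9 and Cald1 at 0.382 and 0.255.

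Against all genes 6 of the 10 CCE values stood at the upper edge, Tpm2 in the middle with 51.9% of genes above it, and Cald1 and Myh9 at the lower end with 93.9% and 98.2% above them. On the log2(RPKM + 1) scale the difference of RiboMinus minus Ribo-Zero in CCE had a median of 3.25 over the 10 genes and of 0.21 over the 9850 genes with an RPKM over 3 by either method. With RiboMinus 6 of the 10 genes were over 4-fold higher, as were 3.44% of all genes, and with Ribo-Zero 1 of the 10, Myh9, was over 4-fold higher, as were 2.83% of all genes. Actg2, at 17.6 RPKM with RiboMinus and 0.424 with Ribo-Zero, passed the level filter through RiboMinus alone. It could count as higher in that direction only. Differences over 3 on the log2 scale were found in 28 of the 9850 genes (0.284%), and 6 of these 28 were Cnn1, Acta2, Tagln, Actg2, Myl9 and Cnn2. No gene of the 9850 had a larger difference than Cnn1, at 4.60. In FH the 8 genes past the same level filter had a median of 0.31, beside 0.45 over 10074 genes. None of the 8 was over 4-fold apart in either direction there, where 3.69% of all genes were over 4-fold higher with RiboMinus and 1.18% with Ribo-Zero. The levels in all 16 libraries, those of Ribo-Zero included, took part in the choice of the genes. Each tissue also has 1 Ribo-Zero library, so these are descriptions with no test.

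**Figure D3:**
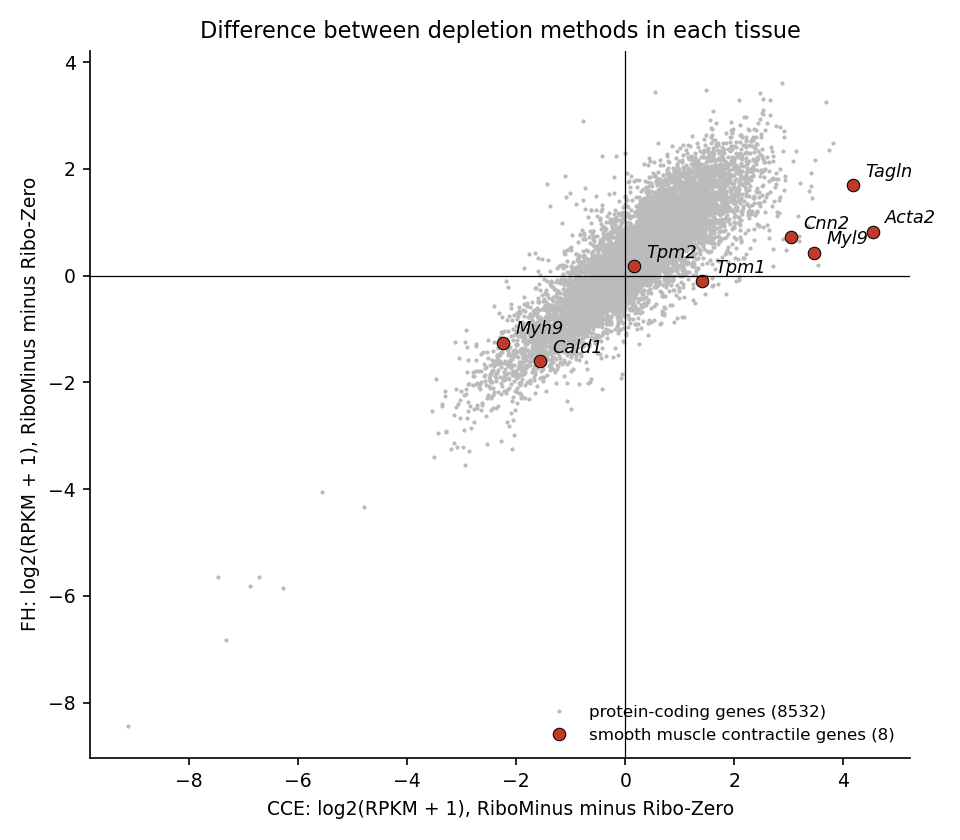
Difference between RiboMinus and Ribo-Zero in log2(RPKM + 1), in CCE on the horizontal axis and in FH on the vertical axis, for 8532 protein-coding genes past the level filter in both tissues (grey) and the 8 contractile genes among them (red). Acta2 (4.54 in CCE, 0.82 in FH), Tagln (4.17 and 1.69), Myl9 (3.46 and 0.43) and Cnn2 (3.04 and 0.72) lie at the right edge of the cloud, and Cald1 (-1.57 and -1.60) and Myh9 (-2.24 and -1.26) inside its lower left.

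Gene length moved with the difference between methods. Over all genes in CCE the median difference was 0.54 for genes with under 2 kb of exon, 0.37 for 2 to 4 kb and -0.09 for over 4 kb, and in FH it was 0.92, 0.61 and 0.12. Tagln, Acta2, Actg2 and Myl9 have under 2 kb of exon, and in CCE at most 0.302% of the genes of that class had a larger difference than any of them. Cnn1 and Cnn2 belong to the middle class, of which 0% and 0.343% lay above them. Tpm1, Cald1 and Myh9 have over 4 kb, and 5.84%, 92.5% and 98.0% of that class lay above them. The share of tags at repeated positions did not follow the level alone. Of the CCE tags in Tagln 72.4% with RiboMinus and 72.2% with Ribo-Zero lay at an occupied position, and for Acta2 the shares were 65.2% and 59.8%. For Myh9 they were 4.96% and 71.3%. Depth differed here, as Myh9 held 152 to 389 tags in single CCE RiboMinus libraries and 23119 in CCE Ribo-Zero. Counting positions once thus removed far more of its Ribo-Zero tags. With every position counted once within each library, RiboMinus stood above Ribo-Zero in CCE by 12.5 times for Tagln and 14.2 times for Acta2. For Cnn1 and Actg2 the values were 18.8 and 27.8 times. For Cald1 and Myh9 Ribo-Zero stood 1.99 and 2.20 times above RiboMinus. A position could count in each of the 8 RiboMinus libraries but only once in the single Ribo-Zero library. These ratios therefore do not correct both methods alike for repeated positions. Mitochondrial tags made up 8.23% of the CCE Ribo-Zero library and 0% of the RiboMinus files, and leaving them out put Tagln at 16.7 times. The part of RNA source, kit, tag length, fragmentation, location and sequencing machine in these differences was not tested.

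Tag position along the genes differed among the members. Introns held 0.894% (interval 0.789 to 1.01) of the CCE RiboMinus tags within Tagln and 1.36% (1.21 to 1.53) of those within Acta2, but 53.5% (52.1 to 55.0) for Myh9 and 63.5% (61.8 to 65.2) for Cald1, whose introns span 168199 bases. In CCE Ribo-Zero the intron share was 2.92% for Tagln, 6.31% for Acta2, 11.6% for Myh9 and 24.4% for Cald1. Introns thus held a larger share for the 2 abundant genes and a smaller share for the 2 long ones with Ribo-Zero. For Myh9 the RPKM of its intron sequence was 2.70 with RiboMinus and 1.54 with Ribo-Zero in CCE, while that of its exons was 12.4 and 62.3. Nuclear and spliced RNA were not separated in any library.

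**Figure D4:**
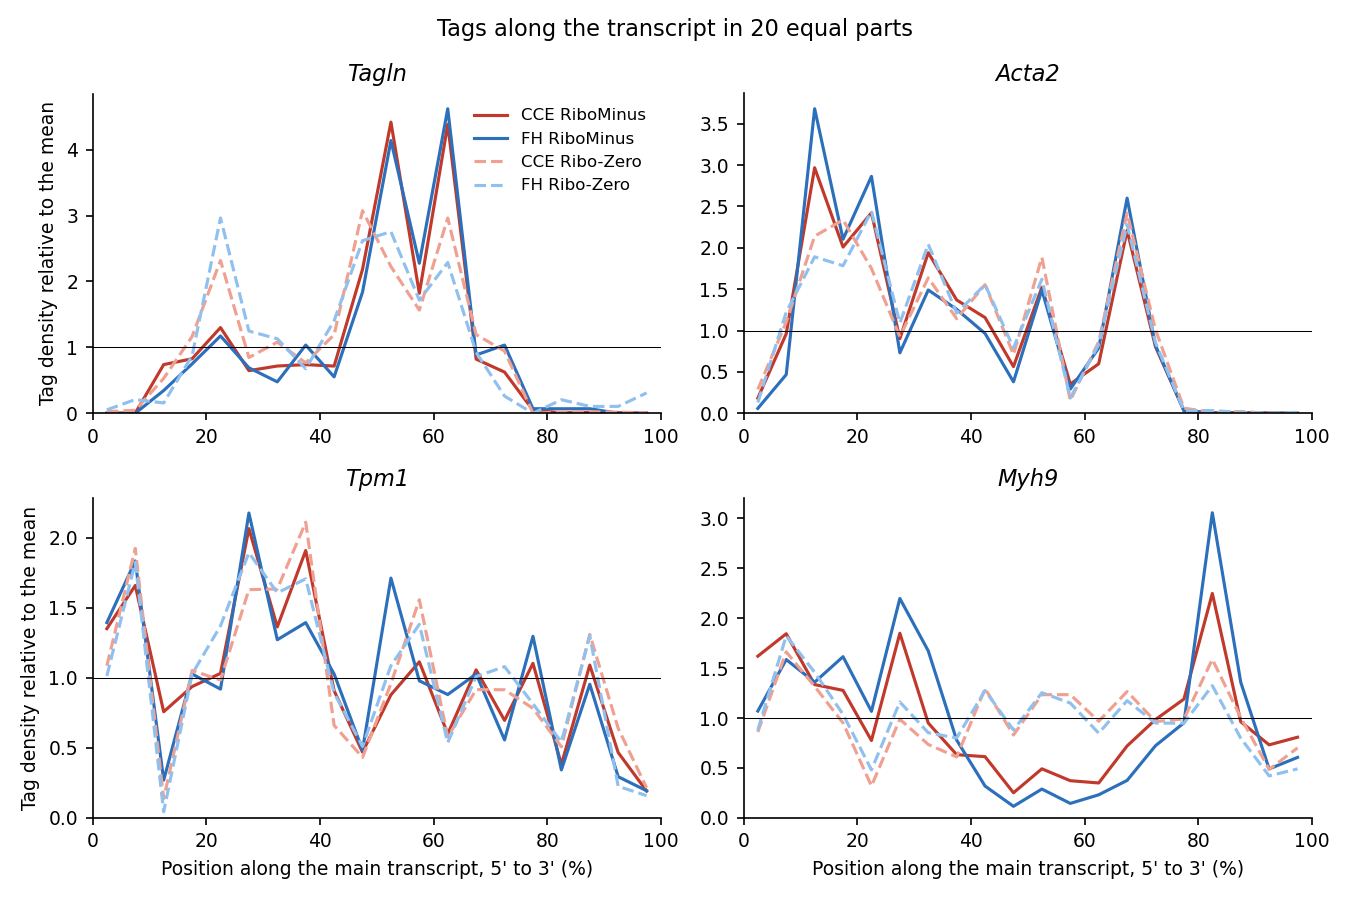
Tag density along the main transcript from 5′ to 3′ in 20 equal parts, relative to the mean density of the transcript, for Tagln, Acta2, Tpm1 and Myh9, with solid lines for RiboMinus, dashed lines for Ribo-Zero, red for CCE and blue for FH. Tagln and Acta2 have almost no tags in the last of 5 equal parts in the CCE libraries, and the middle of Myh9 is sparse with RiboMinus only.

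The annotated 3′ ends of Acta2 and Cnn2 were nearly empty in both tissues, and those of Tagln and Cnn1 in CCE and in FH with RiboMinus. Each main transcript was cut into 5 equal parts. In the pooled CCE RiboMinus tags 43 of 28931 tags of Tagln fell in its last part, a density of 0.0074 relative to the whole transcript. For Acta2 the last part held 19 of 21060 tags, for Cnn1 2 of 3761 and for Cnn2 7 of 6401. The same stretch was nearly empty in CCE Ribo-Zero for Tagln, with 11 of 3489 tags, so RPKM over the annotated exons understates the density of the covered part. In FH with RiboMinus the last part held 2 of 291 tags of Tagln, none of 685 of Acta2, none of 15 of Cnn1 and 2 of 775 of Cnn2. In FH with Ribo-Zero it held 5 of 1852 tags of Acta2 and 11 of 2247 of Cnn2. In FH Ribo-Zero the last part of Cnn1 held 9 of 58 tags, a relative density of 0.775, and that of Tagln 14 of 386, a relative density of 0.181. In Myh9 the middle part was at 0.432 of the mean density in CCE with RiboMinus and at 1.15 with Ribo-Zero, and in FH at 0.217 and 1.14. The last part of Myh9 was at 1.19 and 0.945 in CCE. A sparse middle therefore went with RiboMinus in both tissues.

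Tropomyosin genes hold pairs of equally long exons of which a transcript normally uses one, and the second exons of Tpm1 are the classical example, the upstream one being the smooth muscle exon. Both are shown because the tissues and methods differ in their use. They are from mm9 on the minus strand, at chr9:66895931-66896056 (upstream) and chr9:66895593-66895718 (downstream), are coding in every transcript that holds them, and have 126 bases each. In the annotation 1 transcript holds both. Capitals mark the 66 bases at which they differ.
Tpm1 second exon, upstream: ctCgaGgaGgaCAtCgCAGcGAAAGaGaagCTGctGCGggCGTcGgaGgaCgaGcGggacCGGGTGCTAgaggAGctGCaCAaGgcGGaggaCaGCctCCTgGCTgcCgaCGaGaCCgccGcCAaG
Tpm1 second exon, downstream: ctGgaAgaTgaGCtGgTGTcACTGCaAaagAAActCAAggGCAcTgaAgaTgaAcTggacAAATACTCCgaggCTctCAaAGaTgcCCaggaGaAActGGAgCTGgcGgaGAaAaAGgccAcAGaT

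The upstream exon of Tpm1 held 678 tags and the downstream one 1064 in the pooled CCE RiboMinus libraries, which is 38.9% (36.6 to 41.3, exact binomial), and 27.7 to 52.3% in single preparations. In FH the counts were 19 and 72, or 20.9% (13.1 to 30.7), and 17.6 to 33.3% in single preparations. With Ribo-Zero the share was 11.9% (9.98 to 14) in CCE and 3.72% (2.32 to 5.64) in FH. The upstream exon thus made up a larger share in CCE than in FH by both methods and a larger share with RiboMinus than with Ribo-Zero in both tissues in the pooled tags, with the downstream exon in the majority of each pool. Single RiboMinus preparations of the tissues overlapped, and in 1 CCE preparation the upstream exon held the majority. At the sixth exons of Tpm1 the upstream exon held 24.6% (20.7 to 28.9) and 32.6% (19.1 to 48.5) in CCE and FH with RiboMinus, and 42.6% (36.7 to 48.7) and 35.4% (28.6 to 42.7) with Ribo-Zero, and the intervals of the tissues overlapped.

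In Tpm2 the tissues used opposite exons although its RiboMinus levels overlapped. The sixth exons, at mm9 chr4:43531875-43531950 (upstream) and chr4:43531516-43531591 (downstream) on the minus strand, have 76 bases each and are shown because each tissue used mostly one of them. Capitals mark the 35 bases at which they differ.
Tpm2 sixth exon, upstream: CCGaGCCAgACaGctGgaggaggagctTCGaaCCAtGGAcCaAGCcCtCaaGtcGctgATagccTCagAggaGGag
Tpm2 sixth exon, downstream: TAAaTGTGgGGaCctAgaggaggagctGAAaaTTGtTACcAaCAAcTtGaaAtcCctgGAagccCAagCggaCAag

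In the RiboMinus libraries the upstream sixth exon of Tpm2 held 18 tags against 1 in CCE, which is 94.7% (74.0 to 99.9), and 1 against 28 in FH, which is 3.45% (0.0873 to 17.8). The deeper Ribo-Zero libraries gave 59 against 13 tags in CCE, or 81.9% (71.1 to 90.02), and 17 against 157 in FH, or 9.77% (5.80 to 15.2). At the last coding exons, chr4:43528793-43528875 and chr4:43527651-43527733, the order was turned. Both annotated transcripts with the upstream exon also contain the downstream one, outside their coding part, so the pair is not exclusive and the upstream share is not a share of transcripts. The upstream one held 8.70% (1.07 to 28.0) in CCE and 93.1% (83.3 to 98.1) in FH with RiboMinus, and 6.87% (3.19 to 12.6) and 81.8% (77.1 to 85.8) with Ribo-Zero. Skeletal muscle also expresses Tpm2. Skeletal muscle markers summed to an RPKM of 188 to 259 over the FH preparations and 27.1 to 36.5 over those of CCE, and their part in the exon shares was not tested. In Cald1 the 624-base coding stretch that is found in the long caldesmon of smooth muscle (chr6:34696016-34696639) had a tag density of 0.354 (0.255 to 0.489) relative to the coding part before it, which some transcripts with the stretch lack, in CCE with RiboMinus, 0.146 (0.0261 to 0.551) in FH, and 0.0992 (0.0849 to 0.115) and 0.221 (0.186 to 0.261) with Ribo-Zero. The ratio is not a share of transcripts. Relative to the short part common to all 11 coding transcripts, the 3 annotated pieces of the stretch had densities of 0.585 to 0.810 in CCE with RiboMinus, on 22 common tags and with upper limits above 1. With Ribo-Zero they were 0.133 to 0.189 in CCE, on 292 common tags, and 0.308 to 0.395 in FH, on 138. These shares come from the contrast on which the genes were chosen and carry no test.

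**Figure D5:**
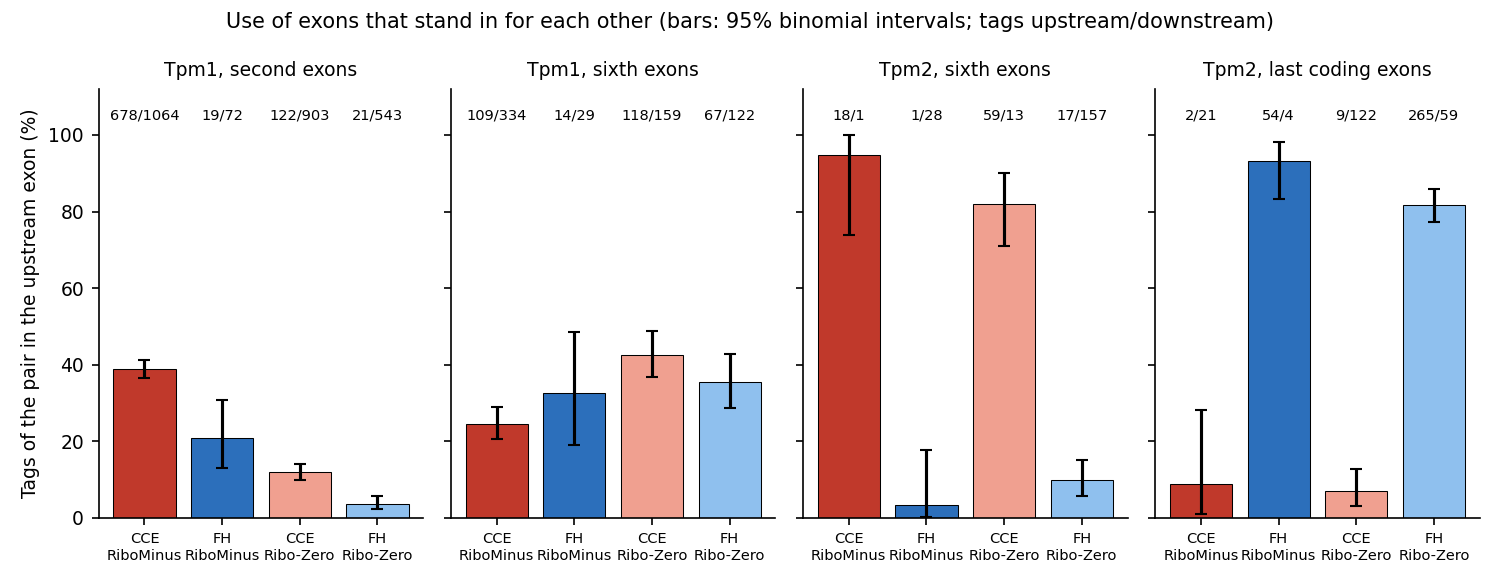
Share of the tags of an exon pair that lay in the upstream exon, in percent, for 2 pairs of Tpm1 and 2 pairs of Tpm2, with a bar for each tissue and depletion method, exact 95% binomial intervals and the tag counts above. The larger share of the tags of each Tpm2 pair lay in different exons in CCE and FH, although transcripts with the upstream last coding exon also contain the downstream one, and the second exons of Tpm1 differ in degree.

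Fragmentation and sequencing location were not used to choose the genes and were tested with limma on log2(RPKM + 1) over all genes. Hydrolysed against sheared CCE preparations had adjusted p under 0.05 in 1 of the 10 genes, beside 27.0% of all genes tested. It was Actg2, at 13.6, 13.7, 7.87 and 14.7 RPKM in the 4 sheared libraries and 19.7, 29.1, 21.9 and 17.1 in the 4 hydrolysed ones, which do not overlap. The log2 difference was 0.69 (SE 0.165, limma adjusted p = 0.0249). In FH 1 of the 10 passed, beside 26.4% of all genes, and it was Acta2, at 26.1 and 20.7 RPKM in the sheared libraries and 57.6, 34.1, 26.0 and 47.9 in the hydrolysed ones, which overlap. Its log2 difference was 0.83 (SE 0.189, limma adjusted p = 0.0214), with 1 sheared FH preparation assumed to vary like the others, as in the interaction. The hydrolysed FH group includes FH2, whose RNA has no sheared counterpart, so the FH contrast mixes fragmentation with RNA. In the libraries numbered FH1, sheared and hydrolysed, Acta2 was at 26.1 and 57.6 RPKM at Vienna-IMP and at 20.7 and 26.0 at Nijmegen. The value of 57.6 is from the library that the study considers most likely a technical outlier. The calls did not hold in the libraries of a single location, where the adjusted p was 0.224 and 0.254 for Actg2 in CCE and 0.414 and 0.353 for Acta2 in FH. The log2 differences there were 0.77 and 0.79 for Actg2 and 0.74 and 0.74 for Acta2, and at Vienna-IMP and Nijmegen 4 and 14 of all genes passed in CCE and 35 and 1081 in FH. With no filter on low values the adjusted p was 0.0763 for Actg2 and 0.122 for Acta2, and with the hydrolysed preparation numbers crossed at Vienna-IMP 0.162 and 0.304. With the RNA preparation number as a block the adjusted p of Actg2 was 0.151. With libraries scaled by the median ratio the CCE call was Cnn2, lower after hydrolysis, and the adjusted p of Actg2 was 0.0531. Without single hydrolysed preparations the adjusted p of Actg2 was 0.108 (CCE1), 0.183 (CCE2), 0.0854 (FH1) and 0.0852 (FH2), and that of Acta2 was 0.0628, 0.0624, 0.165 and 0.121 in the same order. Leaving out a sheared CCE preparation moved the counts the other way, to 6 (CCE1) and 4 (CCE2) of the 10 genes in CCE and to 7 and 6 in FH. The counts over all genes rose with them, to 4632 of 10349 and 3539 of 10389 in CCE and to 4985 and 4999 in FH. With repeated positions counted once the CCE calls were Tagln, Cnn2 and Acta2, all lower after hydrolysis, beside 2570 of 11088 genes, and the adjusted p of Acta2 in FH was 0.072.

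The other 9 genes had log2 differences from -0.32 for Cnn2 to 0.81 for Cald1 between fragmentation methods in CCE and missed the threshold. In all, 4 of the 10 genes had an unadjusted p under 0.05 in CCE and 3 in FH, beside 4299 and 4370 of 10306 genes. The interaction of fragmentation and tissue passed in none of the 10 by limma, beside 0.0776% of all genes. An unadjusted p under 0.05 was found for 2 of the 10 (Cnn2 and Acta2), beside 842 of 10306 genes. Between Vienna-IMP and Nijmegen none of the 10 passed by limma, beside 0.785% of all genes, and none had an unadjusted p under 0.05, beside 970 of 10317 genes. The log2 differences ran from -0.09 for Tagln to 0.36 for Tpm2.

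The regulators of the set were tested between the tissues with limma over all genes, where 34.8% of the 10306 genes tested were higher in CCE and 19.9% lower, with a median log2 difference of 0.34. With libraries scaled by the median ratio 2526 genes were higher and 2530 lower in place of 3582 and 2056, and the median was 0.09. Srf itself had an RPKM of 19.3 ± 5.43 (SD, n = 4) in CCE and 12.5 ± 6.04 (SD, n = 3) in FH and did not pass (log2 difference 0.63, limma adjusted p = 0.120). Mkl2 was higher in CCE (1.33, SE 0.223, adjusted p = 0.00105) and Mkl1 did not pass (-0.35, adjusted p = 0.223). Of the list of SRF and its cofactors 3 of 8 tested genes were higher and none lower, the others being the LIM protein Fhl2 (1.29) and the SRF partner Elk3 (0.68), which passed the filter on low values through CCE alone and could be called in that direction only. The count of higher genes was 2 to 5 under the alternative settings and that of lower genes 0 to 1. With Ribo-Zero Fhl2 was lower in CCE, at 1.03 against 2.497 RPKM, and Elk3 stood at 4.36 and 4.65. Myocd, the smooth muscle cofactor, was below the level filter at 0.603 and 0.165 RPKM in CCE and FH.

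Of 21 SRF targets of the general cytoskeleton 18 were higher in CCE with RiboMinus and none lower, with a median of 1.76, and 16 to 19 were higher under the alternative settings, scaling included. With Ribo-Zero 9 of the 21 were over 2-fold higher in CCE, beside 26.4% of all genes compared, and none over 2-fold lower, beside 10.6%. The log2 differences with Ribo-Zero were 0.80 for Vcl, 0.92 for Pdlim5, -0.07 for Tgfb1i1 and -0.51 for Gsn. With RiboMinus the largest differences were in vinculin (Vcl, 2.60) of focal adhesions, alpha-actinin (Actn1, 2.43), which cross-links actin, and its partner Pdlim5 (2.41). Pdlim5 passed the filter on low values through CCE alone. The 3 that did not pass were Cfl1, Gsn and Tmod3. Of 8 immediate early targets 5 were tested and all 5 were higher, led by Junb (2.82), Mcl1 (1.78) and Ier2 (1.77). Among the 5, Fos and Egr1 passed the filter through CCE alone and could be called in that direction only. The 3 not tested, below the filter, lay lower in CCE, with Egr2 at 0.206 and 0.912 RPKM in CCE and FH, Egr3 at 1.12 and 2.15 and Fosb at 0.201 and 0.275, and without the filter 1 of the 8 was called lower. In CCE RiboMinus minus Ribo-Zero had a median log2 difference of 1.05 over the cytoskeletal targets and 1.48 over the immediate early ones, beside 0.21 over all genes. These lists were written with earlier results of these libraries known, and their counts describe them.

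Paralogs of the 10 genes did not follow one direction. Of 12 tested, 7 were higher in CCE and 4 lower, with a median of 1.10. The tropomyosin Tpm4 (2.42), the transgelin Tagln2 (2.22) and the light chain Myl12b (1.49), which are broadly expressed, were higher in CCE. The neuronal transgelin Tagln3 (-4.75), cardiac actin Actc1 (-3.37) and skeletal actin Acta1 (-1.15) were lower. Markers of differentiated smooth muscle were mostly too low to test, with 4 of 11 past the level filter. Of these Csrp1 (2.27), Lmod1 (1.74) and the intermediate filament gene Des (1.60) were higher in CCE and Smtn (0.12, adjusted p = 0.724) did not pass. Lmod1 was past the filter through CCE alone, at 3.52 against 0.349 RPKM. Below the filter, Mylk (0.388 in CCE and 1.59 in FH), Ppp1r12b (0.338 and 1.38), Synpo2 (0.266 and 0.920) and Aoc3 (0.0657 and 0.564) lay lower in CCE, and without the filter 4 of the 11 genes were called higher and 4 lower. Myh11, the smooth muscle myosin heavy chain and the most specific marker of the lineage, was at 0.602 ± 0.170 RPKM (SD, n = 4) in CCE and 0.264 ± 0.0759 (SD, n = 3) in FH. With Ribo-Zero it was at 0.373 and 0.626. By that method 2 of the differentiated smooth muscle markers were over 2-fold higher in CCE, beside 26.4% of all genes compared. Another 2 were over 2-fold lower, beside 10.6%.

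Markers of other cells moved with the contrast. Endoderm markers, a list that also holds basement membrane genes, were higher in CCE in 9 of 11 tested genes, led by Gata6 (4.15), Gata4 (3.79) and Foxa2 (2.90), and lower in 1, Ttr (-3.82). The 5 pluripotency markers tested lay higher in CCE, led by Pou5f1 (4.24), Zfp42 (3.16) and Dppa5a (3.08). All 5 passed the filter on low values through CCE alone, as did Gata4, Gata6, Foxa2 and Lama1 and, among the SRF targets and cofactors, Fos, Egr1, Pdlim5, Filip1l, Fhl2 and Elk3, so the filter fixed their direction. The same holds in FH for all 5 endothelial markers, for Myog, Myod1, Myh3 and Ckm, for Dcx, Elavl3, Neurod1 and Neurod6, for Cspg4, Kcnj8 and Tnnt2, and for Lum, Postn, Prrx1, Pdgfra and Col1a2. All tested markers of neurons and their progenitors (8), skeletal muscle (6) and endothelium (5) were lower in CCE, with the largest differences in Dcx (-4.86), Myog (-5.63) and Cdh5 (-3.87), as were 8 of 9 of mesenchyme, with the largest in Lum (-5.66). The neural count was 6 to 8 under the alternative settings, and the progenitor gene Sox2 was higher in CCE with Ribo-Zero, at 42.7 against 21.4 RPKM. Myog, Myod1, Myh3 and Myh8 had no tag in the CCE RiboMinus libraries. Mural cell markers were split, with Des and Mcam (0.90) higher and Cspg4 (-3.33), Kcnj8 (-1.77) and Pdgfrb (-1.28) lower. With Ribo-Zero 1 mural marker was over 2-fold higher in CCE and 4 over 2-fold lower, beside 26.4% and 10.6% of all genes compared. Of 4 cardiac markers tested with RiboMinus, Actc1 and Tnnt2 (-1.94) were lower. The cardiac marker Myl7 had 3.13 RPKM in CCE, on 25 tags, against 0.152 in FH and passed the filter through CCE alone, and 0 or 1 cardiac markers were called higher under the alternative settings.

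The CCE cells of both depletion methods came from other RNA, and marker sums differed between them. Summed pluripotency markers had an RPKM of 40.3 to 52.2 over the CCE RiboMinus preparations and 113 in CCE Ribo-Zero, and summed endoderm markers 424 to 595 and 763. Mural markers summed to 64.7 to 102 and 50.4, and differentiated smooth muscle markers to 72.6 to 97.8 and 66.2. The 10 contractile genes summed to 2692 to 3253 and 340. The part of these differences in the levels of the contractile genes was not tested.

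Other genes shared the pattern of Tagln, Acta2 and Myh9 over the 16 libraries, measured as the root mean square difference of log2(RPKM + 1) after centring each of 12439 genes on its own mean. Nearest to Tagln were the matrix protein gene Ecm1 (0.730) and the cell cycle inhibitors Cdkn2b (0.748) and Cdkn2a (0.764). Ecm1 had a pooled RPKM of 446 in CCE RiboMinus, 27.5 in CCE Ribo-Zero, 1.88 in FH RiboMinus and 0.844 in FH Ribo-Zero. Near to Acta2 were Gprc5a (0.428) and the urokinase receptor gene Plaur (0.445). Plaur stood at 60.7 and 4.87 in CCE with RiboMinus and Ribo-Zero. Nearest to Myh9 was the basement membrane collagen Col4a1 (0.107), with 37.9 and 187 in CCE and 18.1 and 46.7 in FH, followed by Nup93 (0.213) and Ap2a2 (0.258). Libraries share depth and kit within these patterns, and the distances are a description.

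CArG boxes were looked for in promoters from the RefSeq table on GRCm38.p6, from 250 bases before to 50 after the start of a gene, on both strands. The table held promoters of 8 of the 10 genes, 9 in all since Cald1 has 2. It held none for Tagln and Actg2, so these genes were not searched. A box of the strict form, 10 letters long, was in 2 of the 9, those of Cnn2 and Myl9, beside 535 of 32851 promoters in the table (1.63%). Near matches, such as ccctatatgg in the Acta2 promoter, were not counted. A promoter without a strict box may thus still hold an SRF site. Counted by gene, a box was in 4 of 14 paralogs of the set, 3 of 6 genes of SRF and its cofactors, 3 of 19 cytoskeletal SRF targets and 1 of 5 immediate early ones. It was in 2 of 8 cardiac and 1 of 6 skeletal muscle markers, and in none of 9 differentiated smooth muscle markers. None was found for the endoderm, pluripotency, neural, mural, mesenchyme and endothelium markers. The boxes of Cnn2 and Myl9 are shown because a CArG box is the element that SRF binds, and the box is in capitals. The box began 56 bases before the start in Cnn2 (chr10:79988519-79988578, plus strand) and 161 bases before it in Myl9 (chr2:156775278-156775337, plus strand).
Cnn2 promoter: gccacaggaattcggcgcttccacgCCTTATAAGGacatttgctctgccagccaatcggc
Myl9 promoter: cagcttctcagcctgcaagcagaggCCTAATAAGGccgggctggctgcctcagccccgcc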

How the data were processed

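Total RNA of differentiated CCE cells and of fetal head was depleted of ribosomal RNA with RiboMinus or Ribo-Zero and sequenced. Per the labels the authors mapped tags with Bowtie to mm9 (versions not given in the sources used here) and deposited unique tags, 1 line each, in 16 files, of which those of RiboMinus hold no mitochondrial tag. The deposited score column is constant and was not used. A further 8 samples of the series were not analysed here. Tags whose midpoint lay in merged GENCODE M1 exons were counted and scaled to RPKM with Python 3.11.15. Libraries of 1 cDNA preparation were summed over both locations, giving 7 preparations (4 CCE, 3 FH), which were numbered as in the study. Over 4286 genes the deviations of same-numbered preparations at both locations correlated at 0.703 for sheared CCE but at -0.743 and -0.587 for hydrolysed CCE and FH, so these numbers may be crossed at 1 location. Results that rest on single preparations carry this doubt. So do all SDs and p-values over preparations, since libraries were summed by these numbers and crossed numbers would mix RNAs and alter the spread. The FH correlation includes the library that the study considers most likely a technical outlier. limma 3.58.1 (R 4.3.3) with trended variance and Benjamini-Hochberg adjustment was fitted on log2(RPKM + 1) for genes whose mean RPKM exceeded 3 in either tissue. The pseudocount makes fold changes of low genes smaller. The fit was tested on simulated data. The simulated preparations were independent and had a fixed spread. That test thus could not check p-values from preparations that share RNA or may be misnumbered. Ribo-Zero has 1 library per tissue, so its values have exact Poisson intervals and no test. Exon shares have exact binomial intervals.

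The members and all gene lists were chosen with earlier results of these data known. Besides the members, the text names Srf, Myocd, Mkl1, Mkl2 and Myh11, up to 3 called genes of each list and direction with the largest log2 difference, up to 3 genes most alike to Tagln, Acta2 and Myh9, alternative coding parts of at least 50 nt of the tropomyosins and caldesmon, and promoters with a CArG box. Genes that did not pass in a list and the mural and cardiac markers were named after their values were seen. Replicate numbers in the titles did not pair CCE with FH libraries, since numbers 3, 4 and 5 each joined a sheared with a hydrolysed library. Of the 6 correlations, those of these 3 numbers were negative. Alternatives covered the pseudocount, the filter, repeated positions, shared exon bases, scaling, location, blocks and single preparations. Those on Ribo-Zero with repeated positions or single preparations were added after the data were seen. Of the genes and lists so chosen, 1 gene and 1 list are not reported here.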

Additional observations from a re-analysis of the deposited data

Results flagged for a closer look

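Actg2 had a CCE over FH ratio of 0.594 with Ribo-Zero and Myl9 one of 0.821, although every CCE RiboMinus library was above every FH RiboMinus library for both genes. The difference between the methods was not tested, since each tissue has 1 Ribo-Zero library, and the interval of the Actg2 ratio (0.332 to 1.02) includes equality. Within the 20 sets of a gene and a tissue no RiboMinus library stood apart from the others by Dixon's criterion, which by chance singles out about 1 in 20 such sets. The criterion was applied to the RPKM of these genes, not to the tag composition by which the study flags 1 FH library.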

How the results depend on the processing

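With RiboMinus the direction between CCE and FH was the same for all 10 genes under 18 settings. The log2 differences were 4.61 to 6.43 for Tagln, 6.00 to 7.30 for Cnn1 and 3.56 to 4.80 for Acta2. For Myh9 they were 0.69 to 1.03 and for Tpm2 -0.77 to -0.32. The lowest values of Tagln and Acta2 came with repeated positions counted once. All settings reuse the tags on which the genes were chosen, so they show only how the description depends on processing. With Ribo-Zero the direction was opposite for Actg2 (ratio 0.594, interval including equality) and Myl9 (0.821). Over all genes 5638 were called between the tissues, 4029 to 7679 under the alternatives, 6243 with the title number as a block and 6522 in the same 12 libraries without it; with median-ratio scaling 2526 were higher and 2530 lower in place of 3582 and 2056. Fragmentation counts stayed within 1.5 times with a pseudocount of 0.1, repeated positions counted once, shared exon bases left out and median-ratio scaling (2438 to 2638 in CCE, 2317 to 3074 in FH), but median-ratio scaling turned the split of the CCE calls from 1576 higher and 1203 lower to 947 higher and 1691 lower, and that of the FH calls from 1510 higher and 1212 lower to 1305 higher and 1769 lower; counting repeated positions once gave 1077 higher and 1493 lower (CCE) and 984 higher and 1929 lower (FH). For CCE, 2779 genes became 463 with no filter, 322 with crossed numbers, 4 at Vienna-IMP, 14 at Nijmegen, 0 with a block of RNA numbers (2866 at an unadjusted limma p under 0.05) and 0 to 4632 without single preparations (2372 to 3560 at an unadjusted limma p under 0.05 where the count was 0). For FH, 2722 became 1345, 518, 35 and 1081 under the first 4 of these and 14 to 4999 without single preparations. For the interaction, 8 became 2 with a pseudocount of 0.1, 323 with no filter, 3 with crossed numbers, 5 at either location and 0 to 207 without single preparations (464 at an unadjusted p under 0.05 for the 0). For location, 81 became 8 with no filter, 20 to 90 without single preparations and 67 with cDNA preparations as a block. Actg2 in CCE was lost in 11 of 16 alternatives and Acta2 in FH in 9 of 14. The 6 genes over 4-fold higher with RiboMinus in CCE were 6 under all 9 alternatives, of which that on repeated positions counted them once per library. All of these used the same single Ribo-Zero library, so they cannot show how the count depends on it. The cause of these shifts was not tested. Depth limits the FH values of Cnn1 and Actg2.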
